A study of Mus musculus with 84 samples.

Results

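The genes of the endocrine fibroblast growth factor FGF21, its co-receptor and FGF receptors that pair with the co-receptor were followed. The tissues were the liver and the epididymal white adipose tissue (eWAT) of diet-induced obese (DIO) mice treated with BI 456906 or semaglutide. The 4 genes were taken by name, as the ligand Fgf21, the co-receptor Klb and the receptors Fgfr1 and Fgfr4, from the 48794 genes of the deposited tables. All 4 passed the filter on low values in both tissues, in which 15964 genes were tested in liver and 18536 in eWAT. Male C57BL/6J mice had been fed a diet with 60% of energy as fat and were 22 weeks old at the start. They received vehicle, the dual glucagon receptor and GLP-1 receptor agonist BI 456906 (doses of 3, 10, 20 and 30 nmol/kg) or the GLP-1 receptor agonist semaglutide (20 and 100 nmol/kg), once daily under the skin for 30 days. From each tissue 6 libraries per group were sequenced, 42 per tissue and 84 in all. The labels number them without saying that each is another mouse, so the p-values measure the spread between libraries. All groups shared the sex, strain and high-fat diet, and no lean group was sequenced, so every difference is one among obese male mice. Each treated group was compared with the same 6 vehicle libraries of its tissue, so the comparisons are not independent of each other.

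FGF21 is a hormone that the liver releases into blood, and its transcription is known to be raised by fasting, by PPARα, by glucagon and by amino acid shortage. It acts on cells that carry β-Klotho, the product of Klb, a membrane protein that binds the hormone and pairs it with an FGF receptor. FGFR1 with β-Klotho is the pair known for FGF21 action on fat and brain, whereas FGFR4 with β-Klotho is the pair in hepatocytes, known for the suppression of bile acid synthesis by the intestinal hormone FGF15. FGF receptors are tyrosine kinases that pass the signal through FRS2, SHP2 and the RAS-ERK cascade.

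Klb lies on the plus strand of chr5:65348314-65384007, Fgf21 on the minus strand of chr7:45613886-45615490, Fgfr1 on the plus strand of chr8:25513654-25575718 and Fgfr4 on the plus strand of chr13:55152640-55168759 (GRCm38, GENCODE M21). All 4 are protein-coding. Fgfr1 overlaps 1 gene on the opposite strand, Gm16159, and whether the reads were counted by strand was not given in the sources used here. Fgf21 is the member whose transcription in liver is known to follow hormonal and nutritional signals, so the 250 bases before its RefSeq start are shown, on the minus strand of chr7:45615491-45615740 (GRCm38.p6).

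Fgf21 promoter: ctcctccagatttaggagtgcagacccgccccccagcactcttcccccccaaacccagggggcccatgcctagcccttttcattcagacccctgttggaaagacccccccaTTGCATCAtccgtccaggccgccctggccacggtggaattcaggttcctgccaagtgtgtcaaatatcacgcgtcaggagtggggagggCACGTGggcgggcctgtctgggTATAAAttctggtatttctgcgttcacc

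Capitals mark 3 short motifs that were found by a search of both strands. A C/EBP-ATF response element, spelled TGATGNAA, stands on the strand opposite to the one printed, between 139 and 132 bases before the start, and is the kind of element that ATF4 binds. The E-box CACGTG, of the kind that carbohydrate-responsive and clock factors bind, lies 50 to 45 bases before the start, and the TATA box TATAAA lies 28 to 23 bases before it. Of 32851 promoter windows of the same kind, 3.45% held the C/EBP-ATF element, 6.02% the E-box and 12.4% the TATA box. The cAMP response element TGACGTCA, held by 1.55% of windows, and the nuclear receptor half-site AGGTCA, held by 14.02%, were not among these letters. A window was given for Klb and Fgfr4 as well, and neither held any of the 5 motifs. These matches describe the letters only.

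The depth was 21.7 M to 53.9 M reads on genes per liver library and 37.57 M to 53.997 M per eWAT library. Albumin (Alb) and adiponectin (Adipoq) marked the tissues as labelled. Alb was at 43236 TPM or more in every liver library. Adipoq was at 740 TPM or more in every eWAT library but at most 0.55 TPM in liver. Of the other adipocyte markers used below, Plin1 and Lep were at most 0.37 and 0.14 TPM in liver. Cidec and Fabp4 reached 165 and 52.6 TPM in liver, against at least 1084 and 7672 TPM in eWAT. Pck1 had a higher median in liver (2383 TPM) than in eWAT (761 TPM). TPM is a level scaled to transcript length and to the library total, and levels of different genes are compared only on this scale. Hepatocyte transcripts were present in eWAT at levels that ranged widely between libraries. Alb was between 9.87 and 3680 TPM in the vehicle eWAT libraries, 12.1 to 548 TPM at 30 nmol/kg BI 456906 and 3.47 to 747 TPM at 100 nmol/kg semaglutide. Relative to the liver of the same group, the median Alb in eWAT was 1.92% in vehicle, 0.0964% at 30 nmol/kg BI 456906 and 0.0798% at 100 nmol/kg semaglutide. By limma/voom Alb itself did not pass, at -3.31 (FDR 0.0653) and -3.44 (FDR 0.0727), and of the 6 hepatocyte markers Apob and Ttr fell at 30 nmol/kg BI 456906. The sum of 6 hepatocyte markers, among them Cyp2e1, which adipocytes also make, was 114 to 6483 TPM in vehicle eWAT and 466 to 2470 TPM at 30 nmol/kg BI 456906, and none of the 6 was at 0. This matters below for Fgf21 and Fgfr4, whose levels in liver were far above those in fat.

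In liver, the ligand Fgf21 was higher at the 2 top doses of BI 456906 than in vehicle. Vehicle livers held 16.1 to 32.6 TPM of Fgf21 with a median of 22.9. At 3 nmol/kg BI 456906 the level was 19.03 to 42.48 TPM (median 31.7) and at 10 nmol/kg 23.2 to 32.7 TPM (median 27.8). At 20 nmol/kg it was 20.5 to 66.5 TPM (median 44.1) and at 30 nmol/kg 27.6 to 50.4 TPM (median 40.9). These 2 groups lay higher as a whole, but 1 library at 20 nmol/kg had less Fgf21 than the vehicle median and both groups overlapped vehicle. Semaglutide livers held 20.8 to 41.8 TPM (median 32.6) at 20 nmol/kg and 17.6 to 57.5 TPM (median 35.9) at 100 nmol/kg. The reads behind these levels numbered 471 to 1688 per library.

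By limma/voom, with a false discovery rate (FDR) of at most 0.05 over all tested genes as the threshold for passing, Fgf21 rose 1.75-fold at 20 nmol/kg BI 456906 (log2 fold change 0.80, SE 0.24, FDR 0.0049) and 1.54-fold at 30 nmol/kg (0.63, SE 0.24, FDR 0.0221). Neither reached the log2 fold change of 1 that the study's methods also ask for. The groups at 3 and 10 nmol/kg had log2 fold changes of 0.32 (FDR 0.404) and 0.11 (FDR 0.748). At 20 and 100 nmol/kg semaglutide they were 0.32 (FDR 0.282) and 0.53 (FDR 0.0636), and the latter passed with edgeR (FDR 0.0446) and DESeq2 (FDR 0.0331). The call at 20 nmol/kg BI 456906 held without any single library (log2 fold change 0.66 to 1.01). The call at 30 nmol/kg did not: without vehicle replicate 43 or 44, or without replicate 69 of the 30 nmol/kg group, Fgf21 was at 0.53 (FDR 0.065), 0.54 (FDR 0.0575) and 0.55 (FDR 0.058). In bulk tissue, more cells of a type and more RNA per cell cannot be told apart.

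**Figure D1:**
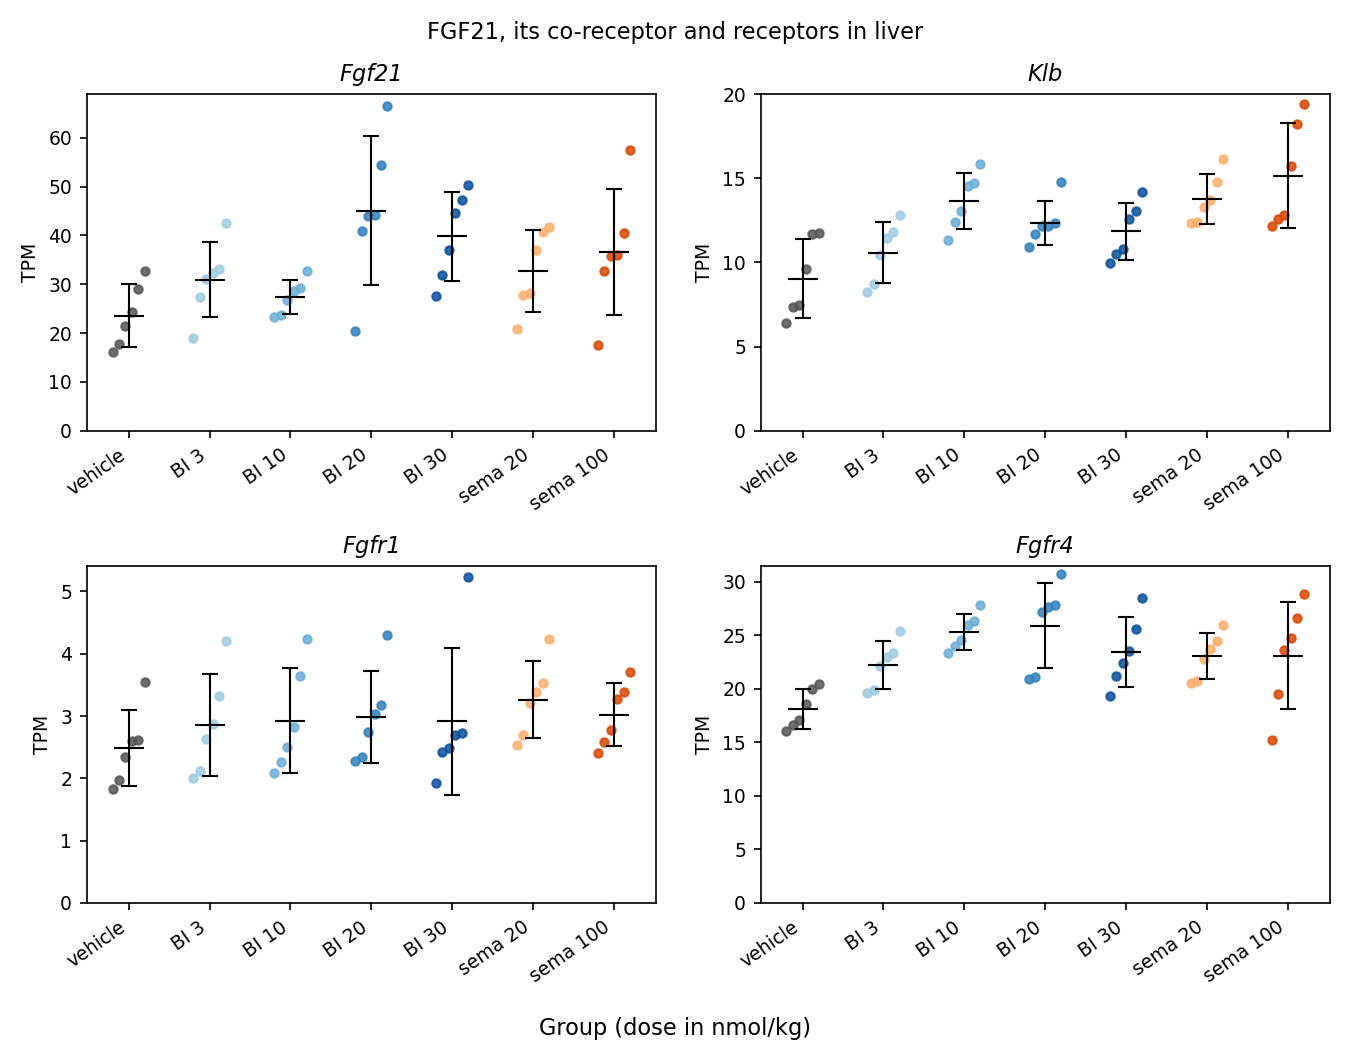
TPM of Fgf21, Klb, Fgfr1 and Fgfr4 in the 42 liver libraries (vertical axis, from 0) by treatment group and dose in nmol/kg (horizontal axis); points are libraries, and the black marks give the mean ± SD of 6. Fgf21 reaches 66.5 TPM at 20 nmol/kg BI 456906 against at most 32.6 TPM in vehicle, Klb and Fgfr4 lie above most vehicle livers in most treated groups, and Fgfr1 stays between 1.83 and 5.24 TPM.

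Klb, the co-receptor, was higher in liver with both compounds. It was 6.38 to 11.7 TPM (median 8.56) in vehicle, 8.22 to 12.8 TPM at 3 nmol/kg BI 456906, 11.4 to 15.8 TPM at 10 nmol/kg, 10.9 to 14.8 TPM at 20 nmol/kg and 9.99 to 14.2 TPM at 30 nmol/kg. With semaglutide it was 12.3 to 16.2 TPM at 20 nmol/kg and 12.2 to 19.4 TPM at 100 nmol/kg, and these 2 groups did not overlap vehicle. Klb passed in 5 of the 6 treated groups and rose most at 100 nmol/kg semaglutide, 1.61-fold (log2 fold change 0.69, SE 0.12, FDR 1.43e-05). It rose 1.44-fold at 20 nmol/kg semaglutide (FDR 0.000508), 1.43-fold at 10 nmol/kg BI 456906 (FDR 0.000936), 1.31-fold at 20 nmol/kg (FDR 0.00834) and 1.27-fold at 30 nmol/kg (FDR 0.0142). Klb at 3 nmol/kg stood at a log2 fold change of 0.19 (FDR 0.313). The call at 30 nmol/kg was lost with library size alone in place of TMM (0.28, FDR 0.0539) and without vehicle replicate 43 (0.28, FDR 0.0528) or 45 (0.29, FDR 0.0503).

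Fgfr4, the receptor that hepatocytes carry, rose in the 3 upper BI 456906 groups. Its level was 16.1 to 20.5 TPM (median 17.8) in vehicle, 23.3 to 27.8 TPM at 10 nmol/kg, 20.9 to 30.7 TPM at 20 nmol/kg and 19.4 to 28.4 TPM at 30 nmol/kg. The groups at 10 and 20 nmol/kg stood wholly above vehicle, and so did 20 nmol/kg semaglutide with 20.5 to 25.9 TPM. The log2 fold changes were 0.30 at 10 nmol/kg (SE 0.10, FDR 0.0205), 0.34 at 20 nmol/kg (SE 0.10, FDR 0.00615) and 0.25 at 30 nmol/kg (SE 0.10, FDR 0.0365). For 3 nmol/kg BI 456906 and for 20 and 100 nmol/kg semaglutide they were 0.19 (FDR 0.212), 0.22 (FDR 0.0766) and 0.21 (FDR 0.093), and both semaglutide values passed on log2(TPM + 1), at 0.33 (FDR 0.0134) and 0.31 (FDR 0.0191). Fgfr4 at 30 nmol/kg was the least stable of these calls, with a log2 fold change of 0.18 (FDR 0.14) by library size alone. It was also lost, at 0.18 to 0.25, without any 1 of vehicle replicates 43, 45 and 46 or replicates 67, 68 and 70 of its own group. At 10 nmol/kg the call was lost without vehicle replicate 45 (0.26, FDR 0.0549).

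Markers of hepatocytes also changed in liver, in both directions. The sum of the 6 hepatocyte markers was 74764 to 90447 TPM in vehicle livers and 90918 to 106038 TPM at 30 nmol/kg BI 456906, and none was at 0. By limma/voom 4 of the 6 rose and 2 fell at that dose, with a median log2 fold change of 0.30. Of 6 macrophage markers 3 fell, with a median of -0.54, beside 58.8% of all genes passing. At 10 nmol/kg 2 hepatocyte markers rose and 1 fell (median 0.08, 37.5% of all genes). At 20 nmol/kg 2 rose and 2 fell (median 0.14, 45.9%). With 20 nmol/kg semaglutide 2 rose and 1 fell (median 0.16, 46.5%), and with 100 nmol/kg 4 rose and 1 fell (median 0.26, 48.1%). The part of either cell type in the rise of Klb and Fgfr4 was not tested.

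Fgfr1, the receptor of fat, was low in liver, and its groups all overlapped. The level was 1.83 to 3.54 TPM in vehicle and 1.93 to 5.24 TPM at 30 nmol/kg BI 456906, and the group means ran from 2.48 to 3.26 TPM. The log2 fold changes were -0.01 to 0.11, with FDR of 0.521 or more, and at 30 nmol/kg the 95% interval ran from -0.21 to 0.36.

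Ordered by mean level, Fgf21 in liver ran from 20 nmol/kg BI 456906 (45.1 ± 15.3 TPM, SD, n = 6) over 30 nmol/kg (39.8 ± 9.07), 100 nmol/kg semaglutide (36.7 ± 12.9), 20 nmol/kg semaglutide (32.7 ± 8.37), 3 nmol/kg (30.9 ± 7.68) and 10 nmol/kg BI 456906 (27.4 ± 3.57) to vehicle (23.5 ± 6.43). No 2 neighbours in this order differed by as much as 1 SD. The order for Klb was another, with 100 nmol/kg semaglutide (15.2 ± 3.10 TPM) and 20 nmol/kg semaglutide (13.8 ± 1.48) first and vehicle (9.04 ± 2.32) last, again with every gap between neighbours under 1 SD. For Fgfr4 the gap of 4.11 TPM between vehicle (18.1 ± 1.83 TPM) and the next group, 3 nmol/kg BI 456906 (22.2 ± 2.198), was the single gap in liver above 1 SD.

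These counts of calls stand against many changes in the liver as a whole. Over all tested liver genes, 13.4% passed at 3 nmol/kg BI 456906, 37.5% at 10, 45.9% at 20 and 58.8% at 30 nmol/kg, and 46.5% and 48.1% passed at 20 and 100 nmol/kg semaglutide. Of the 4 members, 0 passed at 3 nmol/kg by limma/voom, with 0 at an unadjusted p under 0.05 and 0 by edgeR or DESeq2, then 2 at 10, 3 at 20 and 3 at 30 nmol/kg, and 1 at each semaglutide dose. The TPM ranges of treated and vehicle libraries did not overlap for 1.28%, 13.7%, 19.3% and 29.4% of all genes at 3, 10, 20 and 30 nmol/kg and for 19.2% and 17.5% at 20 and 100 nmol/kg semaglutide. Of the members, 0, 1, 1 and 0 did not overlap in the BI 456906 groups, and 2 and 1 in the semaglutide groups. With 4 genes, these counts cannot be told apart from such shares.

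The 2 compounds were compared directly in liver at the dose they had in common. At 20 nmol/kg, Fgf21 was 0.48 higher on the log2 scale with BI 456906 than with semaglutide (95% interval 0.02 to 0.95, FDR 0.312), Klb was 0.14 lower (interval of the difference -0.38 to 0.10, FDR 0.66), Fgfr4 was 0.12 higher (-0.09 to 0.33, FDR 0.649) and Fgfr1 0.13 lower (-0.41 to 0.16, FDR 0.753). Of the 4 members 0 passed by limma/voom, edgeR or DESeq2, with 1 at an unadjusted p under 0.05 in each, and 2.42% of all genes passed by limma/voom. Where doses differed, 30 nmol/kg BI 456906 against 20 nmol/kg semaglutide (13.6% of all genes) and against 100 nmol/kg semaglutide (9.75%), again 0 members passed by limma/voom. The widest difference was that of Klb, which was 0.34 lower on the log2 scale at 30 nmol/kg BI 456906 than at 100 nmol/kg semaglutide (interval -0.585 to -0.10, FDR 0.059) and passed with DESeq2 (FDR 0.0484) but not with edgeR. These intervals leave room for differences of either sign in most members, and the compounds cannot be called alike from them.

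Dose was examined as a straight line through vehicle and the 4 BI 456906 doses. Per 10 nmol/kg, the log2 level of Fgf21 rose by 0.22 (SE 0.07, FDR 0.00459), Klb by 0.09 (SE 0.03, FDR 0.0195) and Fgfr4 by 0.07 (SE 0.03, FDR 0.0421), against 58.9% of all liver genes with a slope that passed. The slope of Fgfr1 was 0.01 (FDR 0.804). Without vehicle, over the 4 doses alone, the slopes were 0.18 for Fgf21 (FDR 0.0626), 0.03 for Klb (FDR 0.605) and 0.02 for Fgfr4 (FDR 0.684). Klb and Fgfr4 were at their highest BI 456906 level at 10 and at 20 nmol/kg, below the top dose.

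**Figure D2:**
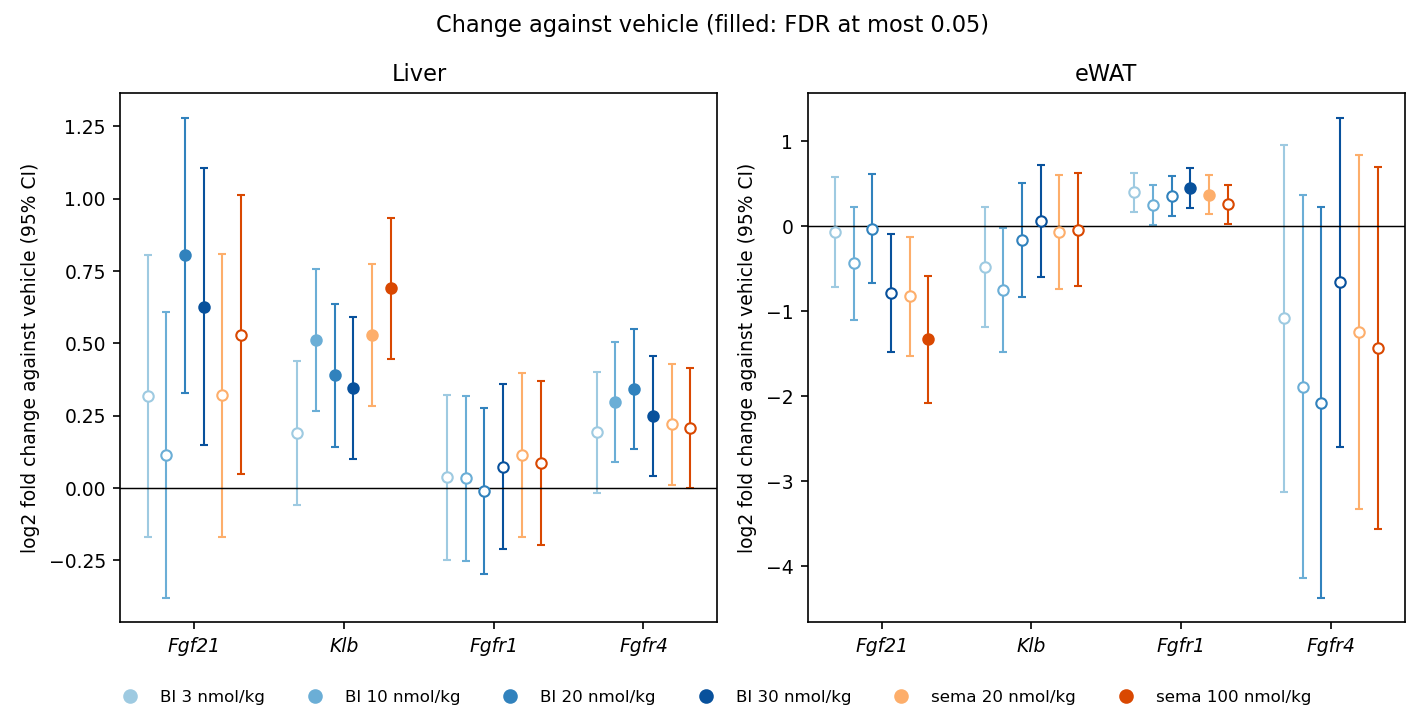
log2 fold change against vehicle of the 4 genes in liver (left) and eWAT (right), with 95% confidence intervals from limma/voom, for the 4 BI 456906 doses and the 2 semaglutide doses; filled points have an FDR of at most 0.05. In liver Klb and Fgfr4 lie above 0 in all treated groups and Fgfr1 near 0, whereas in eWAT Fgfr1 lies above 0 in all groups and Fgf21 at -1.33 for 100 nmol/kg semaglutide; the axes differ between the panels.

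In eWAT, the target tissue, Fgfr1 was the abundant member and was higher at 30 nmol/kg BI 456906 than in any vehicle library. Fgfr1 was at 81.6 to 153 TPM (median 136) in vehicle, 141 to 185 TPM at 3 nmol/kg BI 456906, 124 to 180 TPM at 10 nmol/kg, 147 to 177 TPM at 20 nmol/kg and 161 to 181 TPM (median 175) at 30 nmol/kg. With semaglutide it was at 152 to 191 TPM at 20 nmol/kg and 102 to 180 TPM at 100 nmol/kg. The group at 30 nmol/kg alone did not overlap vehicle. Fgfr1 rose 1.36-fold there (log2 fold change 0.45, SE 0.12, FDR 0.0053), and 1.29-fold at 20 nmol/kg semaglutide (0.37, SE 0.12, FDR 0.0451).

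The rise of Fgfr1 at 30 nmol/kg was kept without any single library, with log2 fold changes of 0.32, without vehicle replicate 3, to 0.52. It was also kept among libraries with Alb of at most 500 TPM (0.45, FDR 0.0426). That cut was chosen after seeing the data and left 2 libraries in vehicle and 5 at 30 nmol/kg. The call at 20 nmol/kg semaglutide was lost, at 0.25 to 0.40, without any 1 of vehicle replicates 1, 3 and 5 or replicates 31, 32, 33, 35 and 36 of its own group. It was also lost in a fit of the groups compared alone (0.39, FDR 0.152). At 3, 10 and 20 nmol/kg BI 456906 the log2 fold changes of Fgfr1 were 0.40 (FDR 0.294), 0.25 (FDR 0.29) and 0.36 (FDR 0.0653), and at 100 nmol/kg semaglutide 0.26 (FDR 0.122). The value at 20 nmol/kg passed by library size alone (0.39, FDR 0.0316) and with DESeq2 (0.34, FDR 0.0304). Without replicate 40, the lowest of that group at 102 TPM, Fgfr1 passed at 100 nmol/kg semaglutide (0.37, FDR 0.0192). The slope on dose was 0.10 per 10 nmol/kg (SE 0.03, FDR 0.0272), and over the 4 doses without vehicle 0.03 (FDR 0.569). The 4 mesothelial markers, from the layer that covers the fat pad, also rose at 30 nmol/kg BI 456906 by limma/voom (median log2 fold change 1.65), where 23.9% of all genes passed. Their sum was 9.08 to 117 TPM in vehicle and 52.8 to 176 TPM at that dose, and all 4 were detected. Of 5 markers of adipose progenitors and fibroblasts 1 rose at that dose, Dcn (median of the 5, 0.37). Their summed level was 1377 to 2053 TPM in vehicle and 2129 to 2673 TPM at that dose, with none of the 5 at 0. The part of either cell type in the rise of Fgfr1 was not tested.

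**Figure D3:**
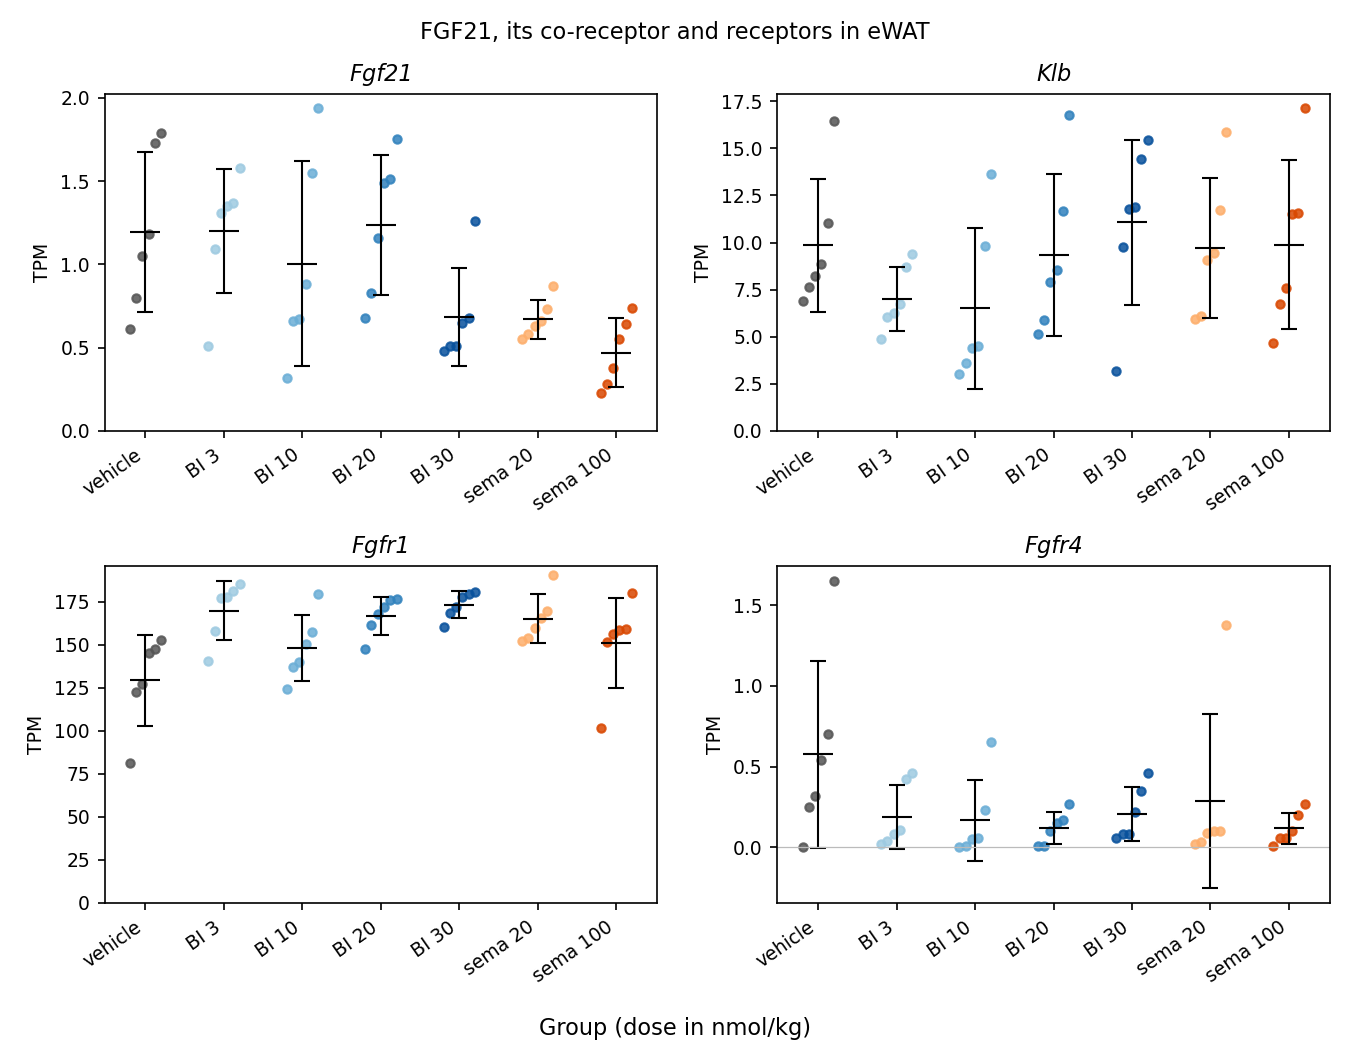
TPM of the 4 genes in the 42 eWAT libraries (vertical axes, one scale per gene) by treatment group and dose in nmol/kg; points are libraries and black marks the mean ± SD of 6. Fgfr1 at 30 nmol/kg BI 456906 lies between 161 and 181 TPM, above every vehicle library, Klb overlaps vehicle in all groups, Fgf21 stays under 2 TPM, and Fgfr4 is at or near 0 but for single libraries.

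Klb in eWAT varied widely within groups. Its level was 6.89 to 16.5 TPM (median 8.54) in vehicle, 4.89 to 9.39 TPM at 3, 3.02 to 13.6 TPM at 10, 5.17 to 16.8 TPM at 20 and 3.17 to 15.4 TPM (median 11.8) at 30 nmol/kg BI 456906. With semaglutide it was 5.95 to 15.8 TPM and 4.69 to 17.2 TPM at 20 and 100 nmol/kg. All groups overlapped vehicle. The log2 fold changes were -0.75 (SE 0.36, FDR 0.308) at 10 nmol/kg and 0.06 (95% interval -0.60 to 0.72, FDR 0.909) at 30 nmol/kg BI 456906, and -0.04 (-0.71 to 0.63, FDR 0.952) at 100 nmol/kg semaglutide. With sample quality weights the value at 10 nmol/kg passed (-0.94, FDR 0.0359).

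Klb is made by adipocytes in fat, so it was also set against 6 adipocyte markers in the same library, as log2(TPM + 1) of Klb minus the mean of the markers. This value was -7.55 in vehicle and -6.83 at 100 nmol/kg semaglutide, a difference of 0.72 (exact permutation test, two-sided, p = 0.00433, adjusted over the 6 treated groups 0.026). At 30 nmol/kg BI 456906 it was -7.28, a difference of 0.27 (exact permutation p = 0.234, adjusted 0.351), and at 3 nmol/kg it was -7.80, lower by 0.25 (exact permutation p = 0.0325, adjusted 0.0974). Of the 6 markers, leptin (Lep) fell by 2.65 and perilipin 1 (Plin1) by 0.92 on the log2 scale at 100 nmol/kg semaglutide. Pck1, another of the 6, had a higher median level in liver than in eWAT. With the median of the markers in place of the mean, the difference was 0.33 (exact permutation p = 0.0455, adjusted 0.182). So Klb was higher relative to the mean of these markers in that group while its own level was not, and the markers themselves had moved.

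Fgf21 was low in eWAT, with 5 to 44 reads per library, and lowest at 100 nmol/kg semaglutide. It was at 0.61 to 1.79 TPM in vehicle, 0.51 to 1.58 TPM at 3, 0.32 to 1.94 TPM at 10, 0.68 to 1.75 TPM at 20 and 0.48 to 1.26 TPM at 30 nmol/kg BI 456906. At 20 and 100 nmol/kg semaglutide it was at 0.55 to 0.87 TPM and 0.23 to 0.74 TPM. The last group overlapped vehicle only through the lowest vehicle library and the 2 highest of its own. Fgf21 fell there by 1.33 on the log2 scale (SE 0.37, FDR 0.0125), the one value of a member in either tissue that also met the study's fold rule. With 30 nmol/kg BI 456906 its log2 fold change was -0.78 (FDR 0.0919), and with 20 nmol/kg semaglutide -0.82 (FDR 0.149). The former passed without vehicle replicate 1 (-0.96, FDR 0.0426) or without replicate 27 of its own group (-1.01, FDR 0.0422).

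The median of Alb at 100 nmol/kg semaglutide was 47.2 TPM, against 917 TPM in vehicle. It was also under that of vehicle at 3 and 20 nmol/kg BI 456906, with medians of 143 and 76.3 TPM, and there Fgf21 had means of 1.20 and 1.24 TPM, beside 1.19 TPM in vehicle. If all Alb in an eWAT library came with the other transcripts of liver in the proportions of the same group's liver, vehicle eWAT would hold a median of 0.453 TPM of Fgf21 from that source, and eWAT at 100 nmol/kg semaglutide 0.0293 TPM. The means, 0.609 and 0.0999 TPM, are carried largely by 1 library each, replicate 2 at 1.82 TPM and replicate 42 at 0.464 TPM. The amount left was 0.585 ± 0.497 TPM (SD, n = 6) in vehicle and 0.370 ± 0.334 TPM at 100 nmol/kg semaglutide (exact permutation p = 0.403). At 3 and 20 nmol/kg BI 456906 it was 0.982 and 1.14 TPM, above vehicle by 0.397 TPM (exact permutation p = 0.156) and 0.553 TPM (p = 0.0801), and both values were 0.468 after adjustment over the 6 treated groups. Among the libraries with Alb of at most 500 TPM, 2 in vehicle and 5 at 100 nmol/kg semaglutide, the log2 fold change of Fgf21 was -0.77 (FDR 0.312), and with log2 Alb as a covariate -0.99 (FDR 0.109). Both alternatives were chosen after seeing the data. Replicate 42 of the semaglutide group, with 747 TPM of Alb, had 0.28 TPM of Fgf21, and the amount matched to its Alb was 0.464 TPM. The lower Fgf21 at 100 nmol/kg semaglutide thus did not pass for the amount left or in either of the 2 alternative fits. The size of the part that liver transcripts had in the fall of Fgf21 was not tested.

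Fgfr4 was low in eWAT. Vehicle libraries had 0 to 1.65 TPM (0 to 127 reads), and the highest, replicate 2, was also the highest in Alb at 3680 TPM. Treated libraries had 0 to 0.65 TPM, with the exception of 1.38 TPM (115 reads) in replicate 31 of 20 nmol/kg semaglutide, where Alb was at 18.6 TPM. A count of 0 in replicates 1 and 14 allows up to 3 reads. The Alb-matched amount was 0.468 TPM of the mean of 0.577 TPM in vehicle, and the amounts left were -0.014 to 0.266 TPM on average in the 7 groups. At 30 nmol/kg BI 456906 the median of Fgfr4 was 0.15 TPM and that of its Alb-matched amount 0.0226 TPM. By limma/voom Fgfr4 did not pass in any group, with log2 fold changes of -2.07 to -0.66 and SE of 0.96 to 1.14, whereas with DESeq2 it passed at 20 nmol/kg BI 456906 (-2.87, FDR 0.0311). At 30 nmol/kg BI 456906 the value turned from -0.66 to 1.79 among libraries with Alb of at most 500 TPM and to 0.59 with log2 Alb as a covariate. The former fit set 5 libraries at that dose against 2 of vehicle, replicate 1 with 0 reads of Fgfr4 and replicate 5 with 30.

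**Figure D4:**
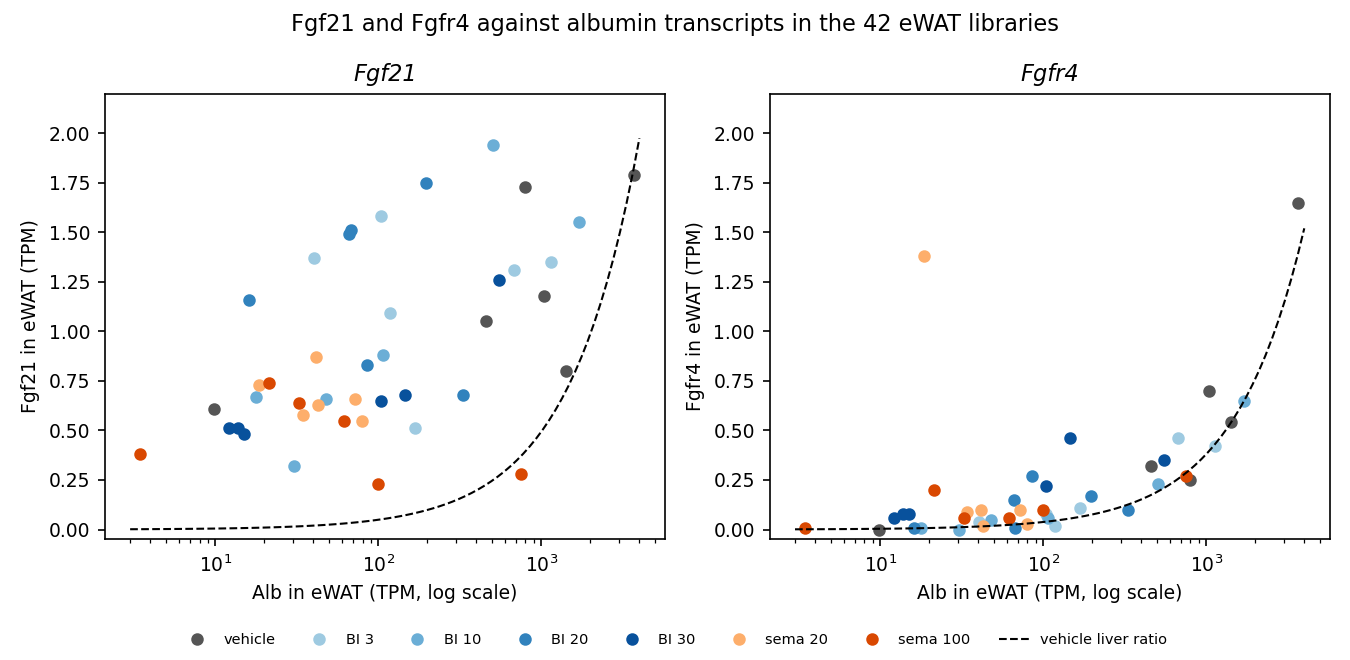
TPM of Fgf21 (left) and Fgfr4 (right) in the 42 eWAT libraries against the TPM of Alb in the same library (log scale); colours give the groups, and the dashed line shows how much of each gene would come with that Alb at the ratio of vehicle liver. 1 semaglutide library has 1.38 TPM of Fgfr4 with 18.6 TPM of Alb, and the vehicle library with 3680 TPM of Alb has 1.65 TPM of Fgfr4.

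In eWAT too, the member counts are read against all genes. By limma/voom 0.00539%, 0.513%, 4.27% and 23.9% of genes passed at 3, 10, 20 and 30 nmol/kg BI 456906, and 6.33% and 14.9% at 20 and 100 nmol/kg semaglutide. Of the members 0 passed at each of 3, 10 and 20 nmol/kg, with 1, 2 and 1 at an unadjusted p under 0.05, and 1 passed in each of the other groups. By edgeR the counts at 3, 10 and 20 nmol/kg were 0, 0 and 0, and by DESeq2 0, 0 and 2. A slope on dose passed for 29.5% of genes and for 1 member. Ranges did not overlap with vehicle for 0.475%, 0.291%, 2.47%, 6.31%, 2.6% and 3.4% of genes in the same order of groups, and for 1 member, Fgfr1 at 30 nmol/kg BI 456906.

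No member differed between the compounds past the threshold in eWAT. At 20 nmol/kg, 0.0% of genes passed by limma/voom (0 genes, 815 at an unadjusted p under 0.05, 0 by edgeR and 4 by DESeq2), and Fgf21 was 0.79 higher on the log2 scale with BI 456906 than with semaglutide (95% interval 0.09 to 1.49, FDR 0.983). Fgfr1 differed by -0.01 (interval -0.25 to 0.22) and Klb by -0.09 (-0.77 to 0.59). For 30 nmol/kg BI 456906 against 20 nmol/kg semaglutide 0.0% of genes passed (0 genes, 2526 at an unadjusted p under 0.05, 1 by edgeR and 128 by DESeq2), and against 100 nmol/kg semaglutide 0.0108% (2 genes, 4567 at an unadjusted p under 0.05, 302 by edgeR and 970 by DESeq2). With sample quality weights the 3 counts were 6, 3841 and 6774 genes. Members that passed numbered 0 in these 3 comparisons by limma/voom, edgeR and DESeq2, with 1 in the first at an unadjusted p under 0.05, and 0 in the others.

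The tissues divide the members between them. Fgf21 was 19.7 times as high in liver as in eWAT in vehicle, 58.4 times at 30 nmol/kg BI 456906 and 78.05 times at 100 nmol/kg semaglutide, by mean TPM. Fgfr1 was 50.0 to 59.5 times as high in eWAT as in liver over the 7 groups. Klb was about even, at 0.917 times the eWAT level in vehicle liver and 2.10 times at 10 nmol/kg BI 456906. The 2 tables of TPM were made separately, which limits these ratios. The mean Alb-matched amount of Fgf21 in eWAT was 0.609 of 1.19 TPM in vehicle. It was 0.0903 of 0.682 TPM at 30 nmol/kg BI 456906 and 0.0999 of 0.47 TPM at 100 nmol/kg semaglutide. The part of liver transcripts in the ratios of Fgf21 was not tested.

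Whether a treatment acted differently on a member in the 2 tissues was tested in 1 limma/voom fit of all 84 libraries. The difference of log2 fold changes, liver minus eWAT, passed for 4 of 24 values. It was 1.20 for Klb at 10 nmol/kg BI 456906 (SE 0.37, FDR 0.0105), 2.34 for Fgfr4 at 20 nmol/kg (SE 0.89, FDR 0.035), -0.48 for Fgfr1 at 30 nmol/kg (SE 0.19, FDR 0.0293) and 1.81 for Fgf21 at 100 nmol/kg semaglutide (SE 0.67, FDR 0.029). Of all genes, 3.37%, 26.7%, 31.9% and 45.9% passed at 3, 10, 20 and 30 nmol/kg BI 456906 and 31.8% and 33.9% at 20 and 100 nmol/kg semaglutide. Fgf21 at 30 nmol/kg was 1.304 apart (SE 0.64, FDR 0.0862). The values for Fgf21 and Fgfr4 rest on eWAT libraries whose Alb ranged widely, and the part of Alb in them was not tested. Fgfr1 at 30 nmol/kg was -0.30 on log2(TPM + 1) (FDR 0.205).

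Transcripts of Fgfr1 to Fgfr4, taken per gene, made up different mixtures in liver and eWAT. In vehicle liver, Fgfr4 was 35.9% of the summed TPM of Fgfr1 to Fgfr4, Fgfr3 31.97%, Fgfr2 27.2% and Fgfr1 4.86%. In vehicle eWAT Fgfr1 was 95.2% and Fgfr4 0.419%. At 30 nmol/kg BI 456906 the share of Fgfr1 in eWAT was 92.6%, or 2.57 percentage points less (exact permutation p = 0.0411, adjusted over the 6 treated groups 0.247), and the difference did not pass. Fgfr2 and Fgfr3 rose in eWAT at that dose, by 0.89 (SE 0.28, FDR 0.0194) and 1.33 (SE 0.42, FDR 0.0188) on the log2 scale. The share of Fgfr1 in liver was 4.86 to 6.06% by group, with adjusted exact permutation p of 0.532 or more.

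**Figure D5:**
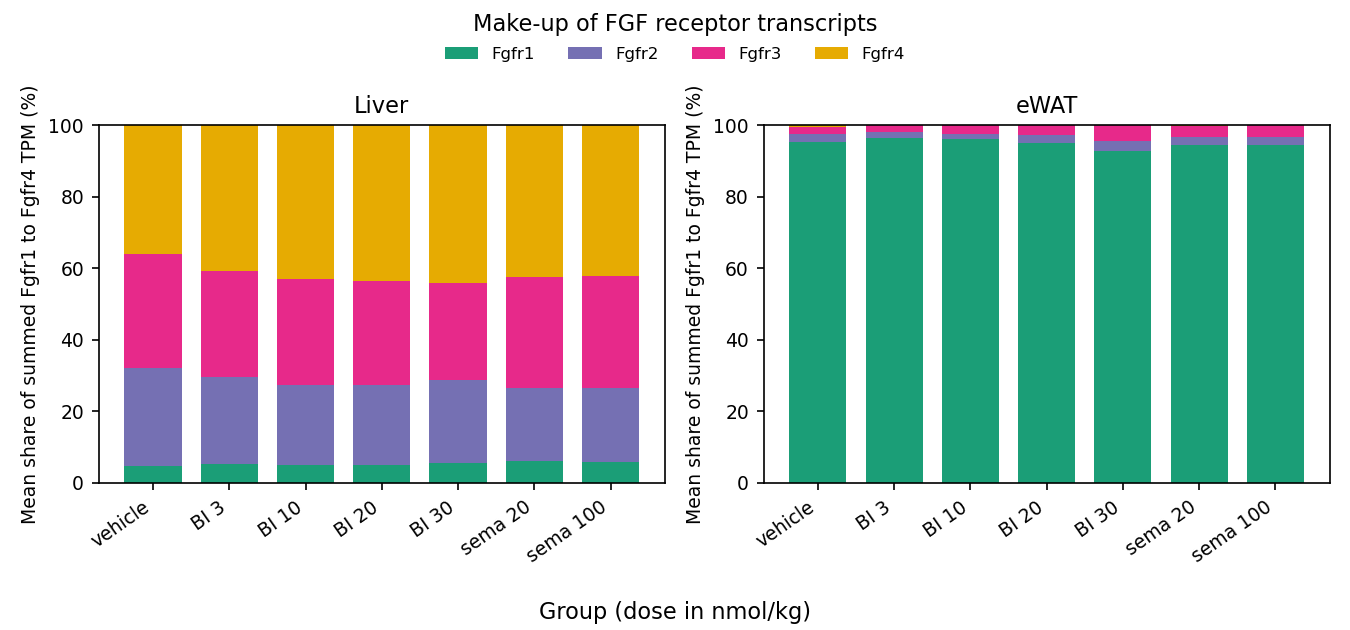
Mean share (%) of Fgfr1, Fgfr2, Fgfr3 and Fgfr4 in their summed TPM, over 6 libraries per group, in liver (left) and eWAT (right) by treatment group and dose in nmol/kg. Fgfr4 makes up 35.9% in vehicle liver and 44.02% at 30 nmol/kg BI 456906, and Fgfr1 makes up 92.6% or more in every eWAT group.

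The genes around the receptors were taken from lists chosen for their roles, and each is given for 30 nmol/kg BI 456906 beside the median log2 fold change of all tested genes, -0.03 in either tissue. Among other FGF receptors and endocrine FGF genes, 4 of 7 were tested in liver, and Kl, Fgf15 and Fgf23 were not. Fgf1, a local FGF, rose by 0.53 (FDR 0.000241), and Fgfrl1, a receptor without a kinase, fell by 0.44 (FDR 0.000209); the median of the list was -0.21. In eWAT, besides Fgfr2 and Fgfr3, the other 2 did not pass, with a median of 0.31. Of all genes, 58.8% passed in liver and 23.9% in eWAT at that dose. Of the intracellular relay of FGF receptors 5 of 13 rose in liver and 4 fell, with a median of 0.02, beside 58.8% of all genes passing. Frs2, the adaptor that FGF receptors phosphorylate, rose by 0.96 (SE 0.10, FDR 3.15e-10), Sos1, which loads RAS with GTP, by 0.93 (SE 0.13, FDR 8.21e-08) and Ptpn11, which encodes SHP2, by 0.45. Mapk3, which encodes ERK1, fell by 0.56 (SE 0.10, FDR 1.57e-05). In eWAT 1 of the 13 fell, Sos1 by 0.15 (FDR 0.0213), and the rest did not pass, beside 23.9% of all genes passing.

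Transcripts that ERK signalling raises, some of which in turn restrain it, passed in part in liver, and none passed in eWAT, at this dose. In liver 5 of 13 rose and 1 fell (median 0.55). The immediate early genes Egr1 and Fos rose by 2.52 (SE 0.61, FDR 0.000545) and 2.49 (SE 0.80, FDR 0.00744), and the ERK phosphatase gene Dusp4 by 1.32 (SE 0.20, FDR 4.11e-07), while Dusp5, another ERK phosphatase gene, fell by 1.05 (FDR 0.000202). The 6 that passed of 13 stand beside 58.8% of all genes. Egr1 and Fos also answer to many signals other than FGF. At 20 nmol/kg semaglutide 7 of the 13 rose in liver, Egr1 and Fos among them, and 1 fell (46.5% of all genes passed), and at 100 nmol/kg semaglutide 2 rose and 1 fell (48.1%). In eWAT 0 of the 13 passed at 30 nmol/kg BI 456906 by limma/voom, edgeR or DESeq2, with 3, 2 and 2 at an unadjusted p under 0.05. Of all eWAT genes 23.9% passed there by limma/voom. For this list the difference between tissues passed for 4 of 13 genes at that dose, beside 45.9% of all genes.

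Of 13 factors known to act on the Fgf21 gene 8 rose in liver and 3 fell (median 0.21), so that 11 passed where 58.8% of all genes did. The nuclear receptor Nr4a1 rose by 2.77 (SE 0.73, FDR 0.0013), the coactivator Ppargc1a by 1.92 (SE 0.14, FDR 2.46e-13) and Ppara, the fasting receptor, by 1.46 (SE 0.26, FDR 9.77e-06), and Pparg fell by 2.71 (SE 0.31, FDR 2.71e-09). Ppara and Ppargc1a rose in each of the 6 treated groups, with Ppara at 1.51 for 20 nmol/kg BI 456906 and 1.49 for 100 nmol/kg semaglutide. In eWAT 2 of the 13 rose, Ppargc1a by 1.15 (FDR 0.0177) and Rora by 0.45 (FDR 0.00813), and 1 fell, beside 23.9% of all genes passing. The one that fell was Creb3l3, a gene that hepatocytes make, by 2.12 (FDR 0.00851), and Alb was at -3.31 (FDR 0.0653). The part of liver transcripts in the fall of Creb3l3 was not tested.

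Other targets of the same factors did not all move with Fgf21. Of 11 targets of PPARα in liver 5 rose and 1 fell at 30 nmol/kg BI 456906 (median 0.45), beside 58.8% of all genes. The fatty acid oxidation genes Cyp4a14, Ehhadh and Acot1 rose by 1.89 (FDR 3.18e-08), 1.57 (FDR 4.1e-05) and 1.34 (FDR 1.91e-05), and Vnn1 fell by 0.79 (FDR 0.000234). Of 10 tested targets of ATF4 in liver 3 rose and 1 fell (median 0.30), against the same share. Asns, the asparagine synthetase gene, rose by 2.88 (SE 0.75, FDR 0.00125), Sesn2 by 0.38 and Slc3a2 by 0.25, and Trib3 fell by 1.28 (SE 0.15, FDR 2.25e-09). Of the same 10 ATF4 targets 1 rose and 3 fell at 20 nmol/kg BI 456906, where 45.9% of all genes passed. With semaglutide 3 rose and 2 fell at 20 nmol/kg (46.5%), and 4 fell at 100 nmol/kg (48.1%). In eWAT 2 of 11 PPARα targets rose (median -0.27), Pdk4 by 0.76 and Acot1 by 0.66, and 6 of 11 ATF4 targets rose (median 0.39), beside 23.9% of all genes, led by Ddit4 at 2.25 (FDR 0.00031), Asns at 1.18 (FDR 8.31e-05) and Chac1 at 1.10 (FDR 0.00577).

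Genes known to respond to FGF21 in fat or to the FGFR4 and β-Klotho pair in liver were the last list. In liver 4 of 8 were tested, and 1 rose and 2 fell at 30 nmol/kg BI 456906, where 58.8% of all genes passed. Cyp7a1 and Cyp8b1, which make bile acids and are repressed through FGFR4, fell by 1.88 (SE 0.34, FDR 1.33e-05) and 1.32 (SE 0.14, FDR 5.95e-10) at 30 nmol/kg BI 456906, and Slc2a1, the GLUT1 gene, rose by 0.41 (FDR 0.000278). At 100 nmol/kg semaglutide Cyp7a1 and Cyp8b1 were at -0.03 (FDR 0.956) and -0.08 (FDR 0.665). In eWAT, where 23.9% of all genes passed at that dose of BI 456906, 30 nmol/kg, 0 of 8 rose and 3 fell. These were Ccl11, a chemokine gene, by 0.28 (FDR 0.0369), and the 2 hepatocyte genes Cyp7a1 by 5.00 and Cyp8b1 by 4.64, beside Alb at -3.31 (FDR 0.0653). The part of liver transcripts in the fall of Cyp7a1 and Cyp8b1 in eWAT was not tested. Adipoq was at -0.07 (FDR 0.881), Ucp1 at 1.01 (FDR 0.288) and Slc2a1 at 0.18 (FDR 0.676) in eWAT. Fap, the protease that inactivates FGF21 by cutting its end, rose in liver by 0.80 (SE 0.32, FDR 0.0315) and was at -0.16 (FDR 0.5) in eWAT.

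For each main member, the 5 genes whose levels followed it most closely over the 42 libraries of a tissue were found by Pearson correlation of voom log2 values, as a description. The libraries share their groups and their cell make-up, so the correlation within groups is given as well for the first. For Fgf21 in liver they were Crat, the carnitine acetyltransferase gene (r = 0.79, within groups 0.73), Sgk2 (0.74), the monocarboxylate transporter gene Slc16a1 (0.73), Hacd3 (0.72) and Grpel2 (0.72). For Klb in eWAT they were Acvr1c (0.92, within groups 0.92), Mapkbp1, Peg3 and Zfp507 (each 0.92) and the adiponectin receptor gene Adipor2 (0.91). For Fgfr1 in eWAT they were Zdhhc8 (0.84, within groups 0.82), Tspan5 (0.82), Htr2b (0.81), Pla1a (0.79) and Dstn (0.79).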

How the data were processed

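Liver and eWAT RNA was sequenced in 6 libraries in each of 7 groups per tissue, and groups were taken from the sample labels. The deposited gene signal holds reads per gene that the authors had divided by 1 factor per library, and whole reads were recovered for all values (tolerance 0.001). The deposited TPM values of the authors were used as given for levels. Per the labels, STAR 2.5.2b, RSEM 1.3.0, featureCounts 1.5.1 and FastQC 0.11.5 were used. The paper and the labels describe different library kits and sequencers. The recovered depth was 21.7 M to 53.9 M reads per liver library and 37.57 M to 53.997 M per eWAT library. The limit given for Fgfr4 in libraries without a read covers counting error only. The intervals from limma/voom rest on the spread between libraries.

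Groups were compared as in the study's methods with voom and limma 3.58.1 in R 4.3.3, after the filterByExpr filter and TMM scaling of edgeR 4.0.16 and with a prior count of 0.5, on the deposited signal in 1 fit of 7 groups per tissue, with Benjamini-Hochberg adjustment over all genes tested. Passing means an FDR of at most 0.05, and the study's rule also asks for a log2 fold change of at least 1. The difference between tissues was an interaction in a fit of 14 groups. Single values per library were compared by two-sided exact permutation over 924 arrangements of 6 against 6 (scipy 1.17.1), whose smallest p is 0.00216. Alternatives were RLE factors, library size alone, other filters, edgeR and DESeq2 1.42.0 on recovered reads, limma on log2 TPM with a pseudocount of 1 or 0.1, sample quality weights, fits of the groups compared alone, and leaving out each library. The procedure was tested on simulated data. No 2 libraries of a group were copies, the lowest chi-square per gene over 105 pairs being 13.3 in eWAT and 15.9 in liver. The labels name no batch, and they do not say which liver and eWAT libraries share a mouse.

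The members and the gene lists were chosen with earlier results of these data known. Of each list the counts and the median are given, and by name the 2 to 4 genes with the largest change among those that passed at 30 nmol/kg BI 456906. Genes at 20 nmol/kg or with semaglutide, Adipoq, Ucp1, Slc2a1, Lep, Plin1 and Alb in eWAT were named after their values were seen.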

Additional observations from a re-analysis of the deposited data

Results flagged for a closer look

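In 5 of 56 groups of 6 libraries, 1 library of a member stood apart from the other 5 by Dixon's test, and chance alone gives about 1 in 20. Fgf21 in eWAT at 30 nmol/kg BI 456906 was 1.26 TPM in replicate 27, against 0.48 to 0.68 TPM in the others. Fgfr1 in eWAT at 100 nmol/kg semaglutide was 101.6 TPM in replicate 40, against 151.5 to 180.1 TPM. Fgfr1 in liver at 30 nmol/kg BI 456906 was 5.24 TPM in replicate 71, against 1.93 to 2.73 TPM. Fgfr4 in eWAT was 0.65 TPM in replicate 15 at 10 nmol/kg BI 456906, against 0 to 0.23 TPM, and 1.38 TPM in replicate 31 at 20 nmol/kg semaglutide, against 0.02 to 0.10 TPM.

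The difference of log2 fold changes between liver and eWAT passed the interaction test for 4 of 24 values. These were Klb at 10 nmol/kg BI 456906 (1.20), Fgfr4 at 20 nmol/kg (2.34), Fgfr1 at 30 nmol/kg (-0.48) and Fgf21 at 100 nmol/kg semaglutide (1.81). Of all genes, 3.37%, 26.7%, 31.9% and 45.9% passed at 3, 10, 20 and 30 nmol/kg BI 456906. At 20 and 100 nmol/kg semaglutide the shares were 31.8% and 33.9%. The values for Fgfr4 and Fgf21 rest on eWAT libraries whose Alb ranged widely.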

How the results depend on the processing

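No paired analysis was possible because the groups compared share no replicate numbers. Over all results and alternatives, 1113 values kept their direction and their side of the threshold, 42 passed where they had not, 38 no longer passed, 44 changed sign and 5 counts moved by over 1.5 times. No value that changed sign had passed. At 30 nmol/kg BI 456906 against vehicle, the median log2 fold change of all genes moved by under 0.1 in the alternatives of tool, filter, scaling and samples fitted for which it was computed. Alternatives on the Alb libraries and on single libraries outside 30 nmol/kg were chosen after seeing the data. The cut at 500 TPM of Alb left 2 vehicle libraries of eWAT and 5 at 30 nmol/kg BI 456906.

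For Fgf21 in liver, the value at 30 nmol/kg BI 456906 ranged from 0.53 to 0.76 when single libraries were left out, and the slope without vehicle was 0.18. For Klb in eWAT at 30 nmol/kg the range was -0.060 to 0.39, and among libraries with Alb of at most 500 TPM the value was -0.19. The slope of Klb in eWAT passed with quality weights (0.21). The slope of Fgfr1 in eWAT without vehicle was 0.033. With log2(TPM + 1), the tissue difference at 30 nmol/kg was 1.11 for Fgf21 and -0.30 for Fgfr1. Klb relative to the median of adipocyte markers was -0.093 at 30 nmol/kg. The count of genes passing both rules at 30 nmol/kg was 2057 in liver, 1239 with at least 10 in every library and 744 with log2(TPM + 1), and in eWAT 1176, against 571 and 546 under the same alternatives and 497 among libraries with Alb of at most 500 TPM. The share of these that rose in eWAT was 35.9%, 51.7% in a fit of the groups compared alone and 25.1% with log2(TPM + 1).

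Fgfr1 between compounds at 20 nmol/kg in eWAT was 0.017 with either log2 TPM and 0.029 with quality weights. For Fgfr1 in liver, quality weights gave -0.048 at 3 nmol/kg, -0.016 at 30 nmol/kg and -0.0047 at 100 nmol/kg semaglutide, and 20 nmol/kg BI 456906 gave 0.0031 with no filter, 0.19 and 0.26 with log2 TPM, and 0.0070 with the groups compared alone. Leaving out single libraries moved Fgfr1 in liver at 30 nmol/kg over -0.059 to 0.16. Its difference from 100 nmol/kg semaglutide was 0.025 by edgeR and DESeq2, and its slope -0.0064 by library size alone and -0.0074 with quality weights. Fgfr4 in liver at 30 nmol/kg differed from semaglutide at 20 nmol/kg by -0.0093 (library size alone) and at 100 nmol/kg by -0.029 (quality weights).

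In eWAT, Fgf21 was 0.014 and 0.029 with log2 TPM at 3 nmol/kg, and 0.0047 (library size alone), 0.000575 (no filter), 0.035 and 0.069 (log2 TPM) at 20 nmol/kg. Against 20 nmol/kg semaglutide, 30 nmol/kg gave -0.0034, -0.034 and -0.043 for Fgf21, and -0.37 (edgeR), -0.37 (DESeq2) and -0.025 (TPM) for Fgfr4. Fgfr4 at 30 nmol/kg was 1.79 among low-Alb libraries, 2 of them from vehicle, and 0.59 with Alb as a covariate, and its slope without vehicle 0.15. Klb at 20 nmol/kg semaglutide was 0.11, and at 100 nmol/kg 0.022 (edgeR), 0.014 (DESeq2) and 0.20 (quality weights). Klb relative to adipocyte markers at 20 nmol/kg BI 456906 was -0.011 with a pseudocount of 0.1 and -0.14 with the median. The cause was not tested. Fgf21 and Fgfr4 in eWAT rest on few reads.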
